A study of Mus musculus with 9 samples.

Results

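The PIWI and Argonaute genes were examined in RNA-seq of whole mouse testes. They were taken by symbol from the deposited gene table and comprised 7 of its 22337 genes, namely Piwil1, Piwil2, Piwil4, Ago1, Ago2, Ago3 and Ago4. All 7 passed the filter on low counts in every comparison. The 9 testes came from mice at 3 weeks of age, with 3 wild-type, 3 heterozygous (Piwil4 WT/R264W) and 3 homozygous (Piwil4 R264W/R264W) animals. The R264W allele replaces an arginine of PIWIL4 with tryptophan and was introduced into C57BL/6 zygotes with CRISPR-Cas9, guide RNAs and a single-stranded donor. It is a germline change carried by every cell of the animal, and the deposited labels name no other allele or treatment. The number of founder lines is not given in the sources used here. The comparisons ask whether the RNA of the family differed between Piwil4 genotypes and with the progress of the first wave of spermatogenesis, the first round of germ cell development after birth.

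Proteins of this family hold a small RNA and use it to find matching RNA targets. The PIWI proteins carry piRNAs, small RNAs of the germline that silence transposons, whereas the Argonaute proteins carry miRNAs and siRNAs in most tissues. PIWIL4 (MIWI2) is the nuclear PIWI protein of prospermatogonia that directs DNA methylation to transposons, PIWIL2 (MILI) acts from prospermatogonia to spermatids, and PIWIL1 (MIWI) accumulates in pachytene spermatocytes and round spermatids. AGO2 is the Argonaute protein best known for cutting its targets, and AGO1, AGO3 and AGO4 act mainly by recruiting repressors to target mRNA.

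The stretch around the changed codon is shown because it is the site of the introduced allele and is shared by the PIWI genes. In the reference genome (GRCm38), the codon that R264W changes in the transcript Piwil4-203 lies in exon 7, on the minus strand of chromosome 9 at 14727436 to 14727438. The codons of Piwil1 and Piwil2 that align with it are codon 276 of exon 9, on the plus strand of chromosome 5, and codon 384 of exon 10, on the minus strand of chromosome 14. Each of the following lines gives 45 coding bases of the reference, 5′ to 3′, with the aligned codon in capitals, from chr9:14727415-14727459, chr5:128743847-128743891 and chr14:70408913-70408957 in turn.
Piwil4: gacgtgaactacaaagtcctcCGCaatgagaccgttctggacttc
Piwil1: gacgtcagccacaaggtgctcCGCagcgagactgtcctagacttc
Piwil2: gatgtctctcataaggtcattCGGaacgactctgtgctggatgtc
All 3 capitalised codons encode arginine. Codon 216 of Ago4, which aligns with them, also encodes arginine, whereas the aligned codons of Ago1, Ago2 and Ago3 encode lysine. Around these codons, 2 of 15 residues of each Argonaute protein were the same as in PIWIL4. Of the 45 bases, 35 were the same in Piwil1 and 27 were the same in Piwil2 as in Piwil4. The counts are per gene, so they do not show which Piwil4 allele was transcribed.

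The estimated counts of a testis summed to between 17.96 and 24.3 M. Marker genes of germ cells and of somatic cells of the testis were found in these libraries, and no marker of the 10 cell type lists was at 0 in all of them. The summed level of 10 Sertoli cell markers ran from 1906 to 2804 CPM (counts per 1 M counts of the library, after TMM scaling, which sets libraries to a common level through most of their genes), and that of 15 spermatogonial markers from 676 to 878 CPM. Dmrtb1 made up most of the spermatogonial sum, with a median of 542 CPM. Of the markers of undifferentiated spermatogonia, Id4 had a median of 68.5 CPM, Etv5 23.2 CPM, Zbtb16 13.5 CPM, Gfra1 4.98 CPM and Nanos2 0.139 CPM. The summed level of 6 striated muscle markers was between 2.12 and 7.88 CPM. The widest differences were those of round spermatids, whose 16 markers summed to between 58.0 and 966 CPM. Replicates of a genotype differed by more than sampling noise, with a chi-square per degree of freedom of 7.43 to 73.5 for the 9 pairs.

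Levels of different genes were compared per length, using the deposited FPKM (fragments per kilobase of a transcript and per 1 M mapped reads). Piwil1 and Piwil2 stood far above the other members, and Piwil4 was the lowest. Piwil1 had 199.76, 223.19 and 231.7 FPKM in wild-type, 195.19, 193.03 and 212.83 FPKM in heterozygous and 193.28, 209.56 and 201.18 FPKM in homozygous testes. Its mean was 206.6 ± 13.8 FPKM (SD, n = 9), higher than that of 98.7% of all genes in the table. Piwil2 had 86.78, 114.28 and 119.71 FPKM in wild-type, 107.37, 106.54 and 119.18 FPKM in heterozygous and 112.29, 110.55 and 86.61 FPKM in homozygous testes. Its lowest testes were wild-type replicate 1 and homozygous replicate 3, which were also the testes with the highest levels of round spermatid markers.

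Piwil4, whose product acts mainly before and around birth, had 0.48, 0.49 and 0.48 FPKM in wild-type, 0.61, 0.33 and 0.64 FPKM in heterozygous and 0.41, 0.35 and 0.29 FPKM in homozygous testes. It rested on 18 to 46 counts per testis, for which counting alone gives a coefficient of variation of 17.6% at the mean count. The observed coefficient of variation over the 9 testes was 26.6%. Piwil4 made up 0.144% of the summed FPKM of the 3 PIWI genes, Piwil1 65.8% ± 2.38 and Piwil2 34.0% ± 2.37 (SD, n = 9).

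Among the Argonaute genes the order was Ago4, Ago2, Ago3 and Ago1. Ago4 ran from 8.51 to 10.85 FPKM with a median of 9.66, and Ago2 from 3.92 to 5.91 FPKM with a median of 4.82. Ago3 had a mean of 2.98 ± 0.565 FPKM and Ago1 a mean of 2.92 ± 0.498 FPKM (SD, n = 9 each). Ago4 made up 47.7% ± 1.67 of the summed Argonaute FPKM, Ago2 23.5% ± 0.916, Ago3 14.5% ± 1.69 and Ago1 14.3% ± 1.42 (SD, n = 9). The summed FPKM of the PIWI genes was 13.9 to 16.5 times that of the Argonaute genes in a testis, with 15.0 to 16.1 in wild-type, 13.9 to 16.1 in heterozygous and 15.1 to 16.5 in homozygous testes, so the genotypes overlapped.

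**Figure D1:**
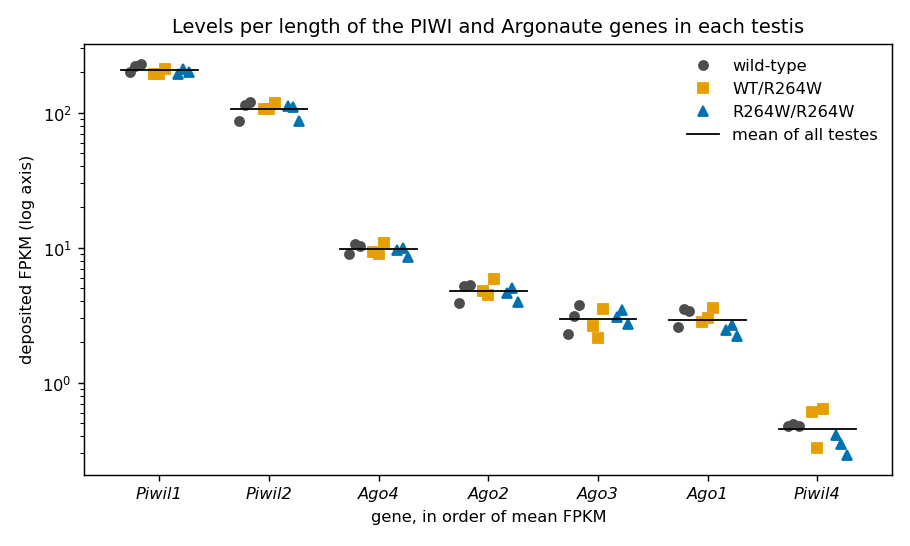
Deposited FPKM (log axis) of the 7 genes in each of 9 testes, coloured by Piwil4 genotype, with a line at the mean of all testes. Piwil1 and Piwil2 lie above 86 FPKM in every testis, the 4 Argonaute genes between 2.14 and 10.85 FPKM and Piwil4 below 0.65 FPKM.

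The order of the means was Piwil1, Piwil2, Ago4, Ago2, Ago3, Ago1 and Piwil4. It was tested between the 6 pairs of neighbours, on paired differences of log2(FPKM + 0.01) within a testis. In 5 of the 6 pairs the order was the same in 9 of 9 testes, with p = 0.00391 each in an exact two-sided sign-flip permutation test, the smallest p that 9 testes can give. On this scale Piwil1 was 1.94-fold above Piwil2, Piwil2 11.0-fold above Ago4, Ago4 2.03-fold above Ago2, Ago2 1.62-fold above Ago3 and Ago1 6.44-fold above Piwil4. Ago3 and Ago1 did not differ beyond their spread, with Ago3 above Ago1 in 4 of 9 testes and p = 0.801 in the same exact test.

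Between homozygous and wild-type testes, no member passed the test. The adjusted p of each of the 7 genes was 0.9998 in edgeR (quasi-likelihood test, Benjamini-Hochberg adjustment) over 15543 genes, of which 0 (0%) passed at a threshold of 0.05. At an unadjusted p under 0.05 the count was 0 of 7, beside 1.26% of all genes tested. DESeq2 called 2 genes in this comparison, neither of them a member. In whole testes, fewer cells of a type and less RNA per cell cannot be told apart.

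Piwil4 had 1.76, 1.66 and 1.59 CPM in wild-type, 2.06, 1.12 and 2.10 CPM in heterozygous and 1.39, 1.18 and 1.02 CPM in homozygous testes. The homozygous testes were all below the wild-type testes, and the lowest of the heterozygous testes lay among them. The log2 change between homozygous and wild-type testes was -0.48 (95% confidence interval -1.03 to 0.07). This interval runs from 0.490-fold to 1.05-fold. An exact permutation test of the mean CPM gave p = 0.1, the smallest that 3 against 3 allow.

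Piwil1 had 863, 889 and 907 CPM in wild-type, 788, 782 and 828 CPM in heterozygous and 774, 847 and 853 CPM in homozygous testes. On this TMM-scaled measure both groups with the allele lay below the wild-type testes without overlap, and they overlapped each other. In the deposited FPKM both groups overlapped the wild-type testes. Wild-type replicate 1 had 199.76 FPKM, beside 209.56 and 201.18 FPKM in homozygous replicates 2 and 3 and 212.83 FPKM in heterozygous replicate 3. The log2 change was -0.11 ± 0.081 (SE) for homozygous and -0.16 ± 0.081 (SE) for heterozygous against the same 3 wild-type testes. The adjusted p was 0.9998 in edgeR for both, and the exact permutation p was 0.1 for both. On TMM-scaled CPM, Piwil1 and Piwil4 were the 2 of 7 members below wild-type without overlap in homozygous testes, beside 3.43% of all genes tested. Piwil1 was the 1 of 7 in heterozygous testes, beside 2.95%.

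Piwil2 had 406, 497 and 515 CPM in wild-type, 476, 476 and 488 CPM in heterozygous and 489, 476 and 397 CPM in homozygous testes, and all 3 groups overlapped. Its log2 change of -0.06 between homozygous and wild-type testes had a 95% interval of -0.36 to 0.24. Without homozygous replicate 3 the change was 0.02, and without wild-type replicate 1 it was -0.16.

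No Argonaute gene passed the test by genotype, and Ago1 had the widest difference among them on the scale of counts. Ago1 had 19.2, 21.4 and 23.6 CPM in wild-type, 20.8, 21.0 and 23.7 CPM in heterozygous and 17.4, 19.8 and 16.4 CPM in homozygous testes. The homozygous testes were below all 3 heterozygous testes, as 1 of 7 members beside 3.73% of all genes tested, and overlapped the wild-type testes. The log2 change was -0.28 ± 0.12 (SE) against heterozygous (adjusted p = 0.948, edgeR) and -0.26 ± 0.13 (SE) against wild-type testes (adjusted p = 0.9998, edgeR). These 2 comparisons share the homozygous testes. Against heterozygous testes the unadjusted p of Ago1 was 0.0508 in edgeR on the 6 libraries. It was 0.0444 with all 9 libraries in one fit and 0.0380 with the round spermatid score as a covariate (edgeR). With limma it was 0.0395 on log2(FPKM + 0.1) and 0.0482 on log2(FPKM + 1), at log2 changes of -0.35 and -0.27. In the other settings that kept every library the unadjusted p was 0.0549 to 0.133 (edgeR or DESeq2).

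The log2 changes of the remaining Argonaute genes between homozygous and wild-type testes were -0.08 for Ago2, -0.20 for Ago3 and -0.10 for Ago4. Ago2 ran from 58.8 to 71.1 CPM in homozygous and from 59.4 to 72.7 CPM in wild-type testes. Ago3 ran from 33.1 to 46.6 CPM and from 39.7 to 50.9 CPM, and Ago4 from 59.9 to 66.9 CPM and from 65.0 to 70.7 CPM, in the same order of groups. The groups overlapped for all 3 genes. With 1 library left out, the change of Ago2 ran from -0.16 (without wild-type replicate 1) to -0.02 (without homozygous replicate 3). That of Ago3 ran from -0.35 (without homozygous replicate 2) to -0.09 (without wild-type replicate 3), and that of Ago4 from -0.14 (without homozygous replicate 2) to -0.06 (without wild-type replicate 2). In edgeR on the 6 libraries of each of the 2 comparisons with heterozygous testes, the counts at an unadjusted p under 0.05 were again 0 of 7. This stood beside 2.22% of 15463 genes in homozygous against heterozygous testes and 1.11% of 15413 genes in heterozygous against wild-type testes. No gene passed an adjusted p under 0.05 in either (0 genes, 0% in edgeR), whereas DESeq2 called 6 and 0 genes.

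**Figure D2:**
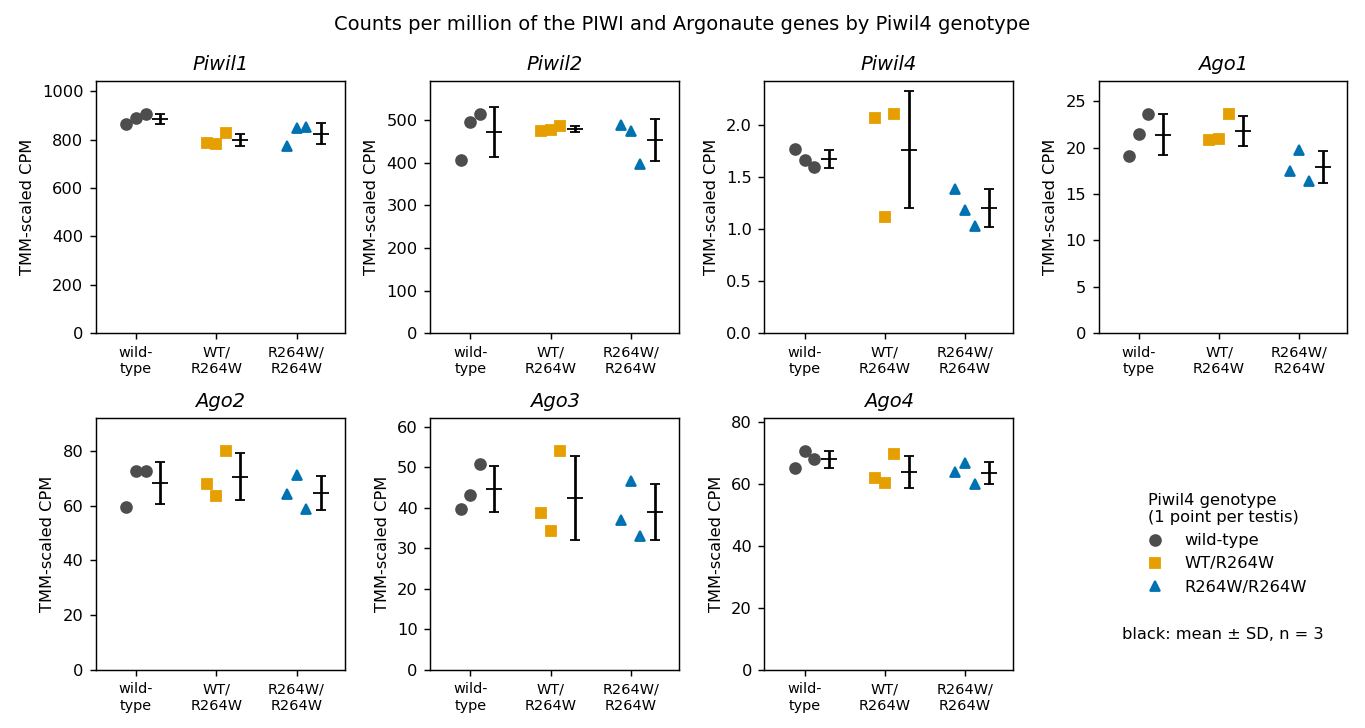
TMM-scaled CPM of each gene by Piwil4 genotype, with 1 point per testis and the mean ± SD of 3 testes in black; each axis starts at 0. The homozygous testes lie below all wild-type testes for Piwil1 and Piwil4, and none of the 7 genes passed the test in any comparison.

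None of the listed genes that work with these proteins passed the test by genotype. In a list of 31 genes of the piRNA pathway, 0 of 31 passed an adjusted p under 0.05 in each of the 3 comparisons in edgeR. The median log2 change of the list between homozygous and wild-type testes was -0.06, beside -0.005 for all genes tested. In a list of 23 genes of miRNA processing and Argonaute partners, 0 of 23 passed in each comparison, with a median of -0.07. Of both lists, Btbd18, which encodes a nuclear protein needed for transcription of pachytene piRNA precursors, was the 1 gene with an unadjusted p under 0.05 in a genotype comparison, beside 2.22% of all genes in that comparison. Its log2 change between homozygous and heterozygous testes was -0.38 ± 0.15 (SE, unadjusted p = 0.0381 and adjusted p = 0.948 in edgeR). The unadjusted p was 0.0506 with all 9 libraries in one fit and 0.104 with the replicate block (edgeR). It was 0.0565 and 0.136 without heterozygous replicates 2 and 3, and 0.0930 and 0.109 without homozygous replicates 1 and 3.

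All testes were 3 weeks old, and the labels give no stage. The progress of the first wave was therefore measured in each testis as the mean log2 CPM of the 16 round spermatid markers, none of which is a PIWI or Argonaute gene. The score was 5.64, 2.06 and 0.743 in wild-type, 4.63, 2.97 and 0.241 in heterozygous and 1.74, 3.20 and 5.45 in homozygous testes. The testes spread over the whole range of each genotype, with no gap over 1.43 between neighbours, and formed no separate groups. The slope of each gene on this score was fitted over the 9 testes with genotype as a term. Of 16052 genes, 25.1% had a slope that passed at an adjusted p under 0.05 (edgeR, quasi-likelihood), 17.2% higher and 7.9% lower with the score.

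Of the 7 members, Piwil2 passed this test (1 of 7) and the other 6 did not. Piwil2 fell by 0.05 on the log2 scale per unit of score (95% interval -0.09 to -0.02, adjusted p = 0.0337). Over the range of scores, 5.40 units, this makes a 0.820-fold level at the most advanced testis (95% interval 0.717 to 0.937). In order of rising score, Piwil2 had 488, 515, 489, 497, 476, 476, 476, 397 and 406 CPM. The 4 testes with the lowest scores were at 488 to 515 CPM and the next 3 at 476 CPM, and the 2 with the highest scores lay below all 7. Without wild-type replicate 1, the most advanced testis, the slope was -0.04 with an adjusted p of 0.260. Without homozygous replicate 3 it was -0.04 with an adjusted p of 0.151. The call was also lost without wild-type replicate 3 (adjusted p = 0.109, edgeR), homozygous replicate 1 (adjusted p = 0.0856) and homozygous replicate 2 (adjusted p = 0.0584).

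Piwil1 had a slope of -0.003 ± 0.015 (SE, adjusted p = 0.901), and its highest CPM was 1.17 times its lowest over the 9 testes. The 95% interval of its level over the range of scores was 0.876-fold to 1.12-fold. Its direction turned under several alternatives, among them scaling to the Sertoli cell markers, where the slope was 0.04 with an adjusted p of 0.485. Piwil4 had a slope of -0.02 ± 0.068 (SE, adjusted p = 0.848), and the interval over the range of scores, 0.532-fold to 1.61-fold, was wide at its low counts.

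All 4 Argonaute genes had negative slopes that did not pass the test. In order of rising score, Ago2 had 80.1, 72.7, 64.3, 72.6, 63.5, 71.1, 67.9, 58.8 and 59.4 CPM. The slope of Ago2 was -0.06 ± 0.020 (SE, adjusted p = 0.0535). Ago3 had 54.1, 50.9, 36.9, 43.3, 34.3, 46.6, 38.8, 33.1 and 39.7 CPM in the same order, with a slope of -0.08 ± 0.030 (SE, adjusted p = 0.0606). The testes with the lowest scores had the highest levels of both genes. The slopes of Ago1 and Ago4 were -0.05 ± 0.023 and -0.03 ± 0.018 (SE), with adjusted p = 0.158 and adjusted p = 0.266 (edgeR). Ago2 and Ago3 passed with the score of 10 pachytene spermatocyte markers in place of the round spermatid score (adjusted p = 0.00920 and adjusted p = 0.00918, edgeR). When a library was left out, Ago2 passed without heterozygous replicate 1 (adjusted p = 0.0242) and without heterozygous replicate 2 (adjusted p = 0.0329), and Ago3 passed without heterozygous replicate 2 (adjusted p = 0.0282) and without homozygous replicate 1 (adjusted p = 0.0359).

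Other marker lists moved with the score beside these genes. Of 10 markers of early meiosis, 5 fell and 1 rose, and of 10 pachytene spermatocyte markers, 7 rose and none fell (0). Of 13 spermatogonial markers tested, 2 rose and 2 fell, and of 10 Sertoli cell markers, 1 rose and 2 fell. The Leydig cell list had 2 of 7 that rose and the macrophage list 1 of 6. None of 5 peritubular myoid, 6 endothelial or 2 striated muscle markers tested passed (0 in edgeR). The part of these cell types in the slopes of the PIWI and Argonaute genes was not tested. With libraries scaled to the Sertoli cell markers the slope of Piwil2 was -0.01 with an adjusted p of 0.838, and the median slope of all genes moved from -0.01 to 0.03.

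**Figure D3:**
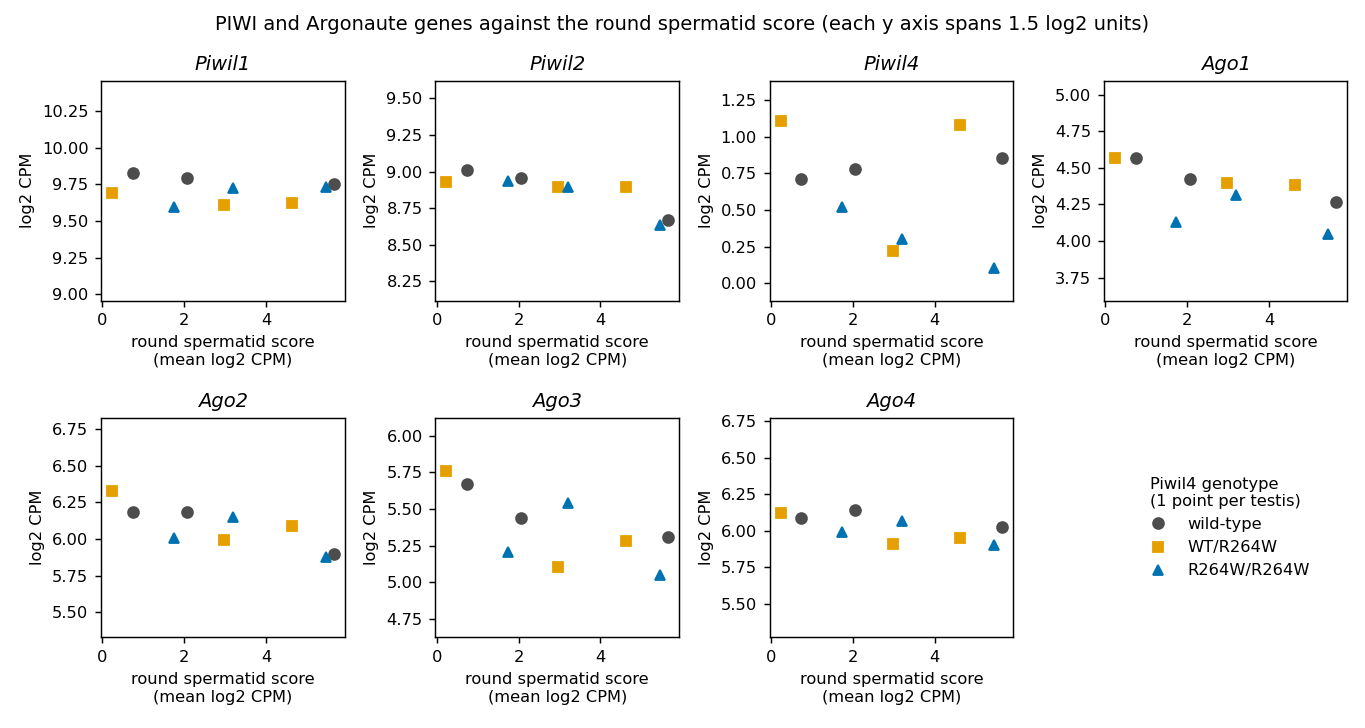
log2 CPM of each gene against the round spermatid score of the testis (mean log2 CPM of 16 markers), with 1 point per testis and colours for the Piwil4 genotype; every vertical axis spans 1.5 log2 units. Piwil2 lies between 476 and 515 CPM in 7 testes and below them in the 2 with the highest scores, Piwil1 stays within 1.17-fold, and Ago2 and Ago3 are highest at the lowest scores.

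The same relation was measured as a correlation of log2 CPM with the score over the 9 testes, with exact permutation tests over all pairings, for each of the 7 genes. Piwil2 had Pearson's r = -0.84 (exact p = 0.00142) and Spearman's rho = -0.85 (exact p = 0.00607). Its r was -0.85 without the 2 testes farthest from the median score and -0.84 after removal of the genotype means. Ago2 had r = -0.81 (exact p = 0.0105) and rho = -0.80 (exact p = 0.0138), with r = -0.62 without those 2 testes. The remaining r values were -0.08 for Piwil1, -0.26 for Piwil4, -0.65 for Ago1, -0.68 for Ago3 and -0.64 for Ago4. Their exact p values were 0.824, 0.479, 0.0606, 0.0472 and 0.0697, before any adjustment for the 7 relations. In the same order, rho was 0.07, -0.25, -0.70, -0.57 and -0.58, with exact p of 0.880, 0.521, 0.0433, 0.121 and 0.108. After Benjamini-Hochberg adjustment over the 7 genes, the exact p of r was 0.00995 for Piwil2, 0.0366 for Ago2 and 0.0975 for Ago1, Ago3 and Ago4.

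Partner genes of both branches rose and fell along the score. In the piRNA pathway list, 5 of 31 rose, 6 fell and 20 did not pass the test, beside 17.2% and 7.9% of all genes. The median slope of the list was -0.02, beside -0.01 for all genes. The 4 largest rises were Dnmt3l, Gtsf1, Tdrd6 and Tdrd7. Dnmt3l, which encodes a cofactor of DNA methylation in prospermatogonia, rose by 0.53 ± 0.066 (SE) on the log2 scale per unit of score (adjusted p = 5.29e-05, edgeR), from as few as 10 to 96 counts. The counts are per gene, so they do not show which Dnmt3l transcripts rose. Gtsf1, encoding a partner that aids target cutting by PIWI proteins, had a slope of 0.11. Tdrd6 and Tdrd7, encoding Tudor proteins of the chromatoid body, the RNA granule of spermatids, had slopes of 0.09 and 0.08.

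The 4 largest falls in this list were those of Dnmt3a (-0.09), Spin1 (-0.08), Stk31 (-0.08) and Fkbp6 (-0.07). DNMT3A is a DNA methyltransferase, SPIN1 a chromatin reader, STK31 a Tudor domain protein and FKBP6 a co-chaperone of PIWI loading. Mov10l1, encoding the helicase that starts piRNA processing, also fell, with a slope of -0.06 (adjusted p = 0.0202, edgeR). In the miRNA list, Pan3, encoding a subunit of a deadenylase, rose (slope 0.12), so that 1 of 23 rose, 4 fell and 18 did not pass, beside 17.2% and 7.9% of all genes. The genes that fell were Dicer1 (-0.08), Prkra (-0.08), Drosha (-0.06) and Cnot7 (-0.06). Dicer1 and Drosha encode the nucleases that cut miRNA precursors, Prkra a partner of DICER1 and Cnot7 a deadenylase. The median slope of the miRNA list was -0.04.

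The calls in both lists moved with the libraries and the setting, as did those over all genes. Of all genes, 4030 passed in the fit above, 1964 without wild-type replicate 1 and 6050 without heterozygous replicate 1. In the 11 alternative settings that kept every library, 3164 to 5481 passed. Whether the lists moved more than all genes was not tested. Without wild-type replicate 1, the piRNA list had 3 genes that rose and 3 that fell, and the miRNA list had 1 that rose and 2 that fell. The piRNA pathway genes that rose were 3 without heterozygous replicate 3, and those that fell were 3 without wild-type replicate 3, 2 without homozygous replicate 3 and 10 without heterozygous replicate 1. The genes of the miRNA list that fell were 11 and 7 without heterozygous replicates 1 and 2, 1 without heterozygous replicate 3 or wild-type replicate 3, and 2 without homozygous replicate 1 or 3, and those that rose were 2 without heterozygous replicate 1. Scaled to the Sertoli cell markers, 6 piRNA pathway genes rose and 0 fell, and 2 genes of the miRNA list rose and 0 fell, so that every fall named above was lost in that setting. In the piRNA list 2 rose and 9 fell with limma on log2(FPKM + 0.1), 3 rose and 9 fell on log2(FPKM + 1), and 6 rose and 11 fell with the pachytene spermatocyte score. In the miRNA list 1 rose and 3 fell with limma on either scale, and 2 rose and 8 fell with the pachytene spermatocyte score. With the replicate block 4 rose and 5 fell in the piRNA list, and 1 rose and 2 fell in the miRNA list.

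Of the named genes of these lists that were refitted in the alternatives, Dnmt3l and Pan3 passed in all 11 settings that kept every library and in all 9 that left out 1. Gtsf1 passed in the same 11 and missed the threshold without wild-type replicate 1 (adjusted p = 0.0530, edgeR). Tdrd6 missed it with limma on log2(FPKM + 0.1) (adjusted p = 0.0578), and Tdrd7 with limma on both scales (adjusted p = 0.0843 and adjusted p = 0.0706) and without heterozygous replicate 3 (adjusted p = 0.0641, edgeR). Dnmt3a and Dicer1 missed it with limma on both scales (adjusted p of 0.0866 to 0.105 and of 0.0761 to 0.0992). With 1 library left out, Dnmt3a missed it in 7 of 9 fits and Dicer1 in 5 of 9, at adjusted p up to 0.236 and 0.213 without wild-type replicate 1. Drosha and Cnot7 missed it with the replicate block (adjusted p = 0.0544 and adjusted p = 0.0720, edgeR) and in 2 and 5 of 9 fits without 1 library. Fkbp6 missed it in 3 and Prkra in 1 of those 9 fits, and Spin1 and Stk31 in none (0).

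**Figure D4:**
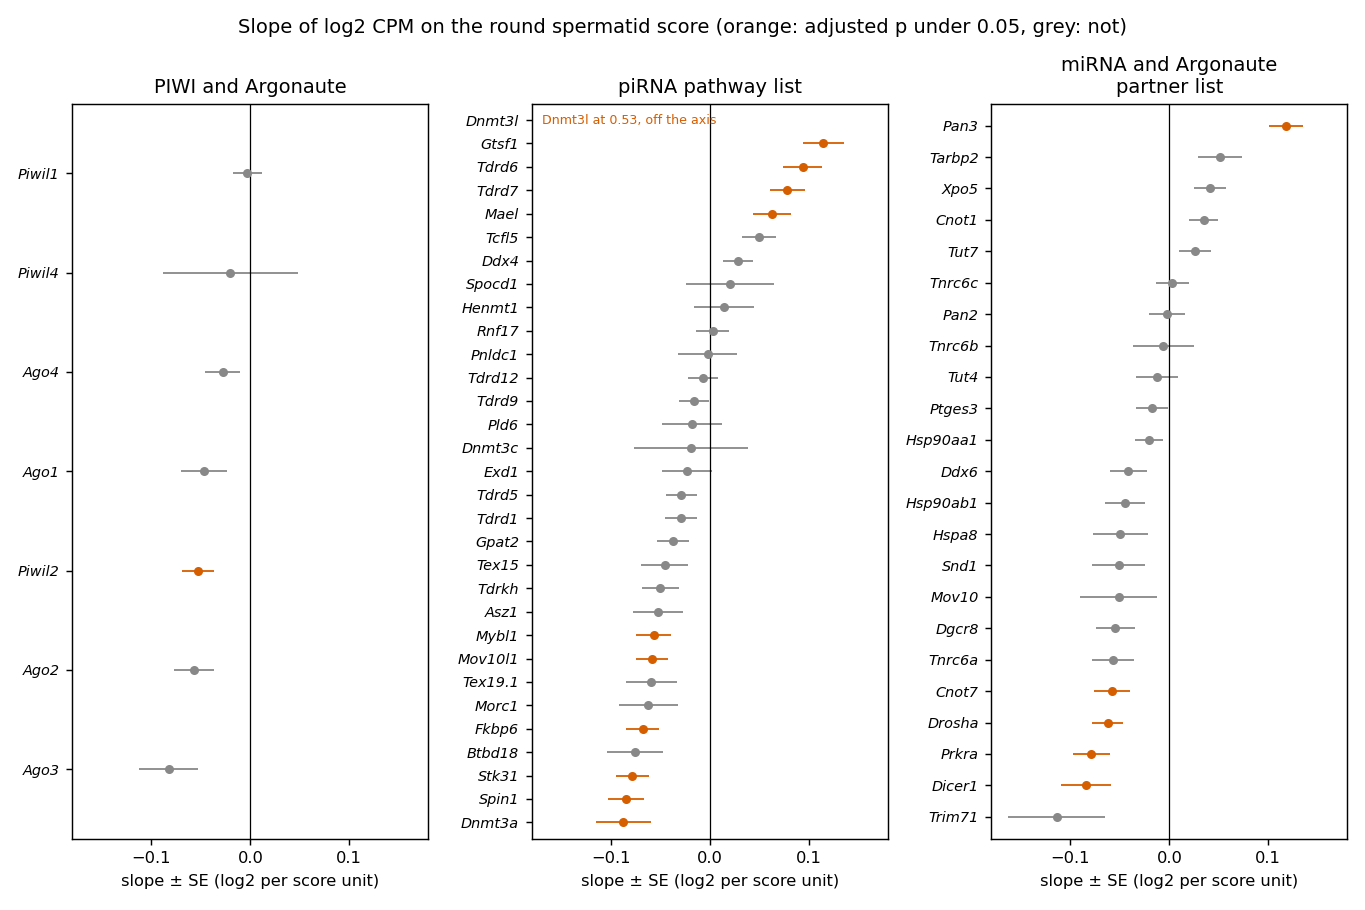
Slope of log2 CPM on the round spermatid score ± SE (log2 per score unit) for the PIWI and Argonaute genes, 31 piRNA pathway genes and 23 miRNA and Argonaute partner genes, in orange where the adjusted p was under 0.05. Piwil2 is the 1 member in orange; Dnmt3l, at 0.53, lies off the axis.

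The correlation of levels from testis to testis was measured for each pair of members, and the highest values were between Argonaute genes. Of the 21 pairs of members, Ago2 and Ago3 had the highest correlation of log2 CPM over the 9 testes, with r = 0.88 (exact p = 0.00226) and rho = 0.88 (exact p = 0.00308). Ago3 and Ago4 had r = 0.87 (exact p = 0.00384) and rho = 0.88 (exact p = 0.00308). These r values were 0.73 and 0.86 without the 2 testes farthest from the median log2 CPM of the first gene named (Ago2 or Ago3). They were 0.91 and 0.89 with genotype means removed. The other Argonaute pairs had r = 0.81 (Ago1 and Ago2), 0.77 (Ago1 and Ago3), 0.78 (Ago2 and Ago4) and 0.62 (Ago1 and Ago4), with exact p = 0.00903, 0.0158, 0.0166 and 0.0806 and rho = 0.85, 0.73, 0.83 and 0.68. Piwil2 had r = 0.78 with Ago2 (exact p = 0.00942, rho = 0.72) and r = 0.69 with Ago1 (exact p = 0.0414, rho = 0.67), both above the value of Ago1 with Ago4. These 2 values were 0.37 and 0.44 without the 2 testes farthest from the median log2 CPM of Piwil2. Piwil2 had r of 0.56 with Ago3 and 0.52 with Ago4, and Piwil4 had r of 0.52 to 0.59 with the Argonaute genes. Piwil1 had r between -0.05 and 0.59 with the other members. All these values share the scaling of each library and the stage of its testis, and the p values are not adjusted for the 21 pairs.

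The genes most like each member over the 9 testes were taken from 14471 genes with a mean of at least 1 CPM. Piwil2 was most like Fam168b, Mov10l1 and Leprotl1, each with r = 0.97. Piwil1 was most like Cacnb2 (r = 0.94), Nptxr (0.94) and Smyd1 (0.92), and Piwil4 most like Ctnna2 (0.95), Pcm1 (0.94) and Uevld (0.93). Ago1 was most like Evpl (0.98), Pip4k2c (0.96) and Ttc14 (0.96), and Ago2 most like Wdr77 (0.97), Tardbp (0.97) and Zfp652 (0.96). Ago3 was most like Cdc37l1 (0.98), Ccp110 (0.96) and Alg6 (0.95), and Ago4 most like Ankra2 (0.94), Kcnj4 (0.93) and Ccdc141 (0.92). These are the highest of many values over 9 testes and are given as a description.

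Ago3, Ago1 and Ago4 are neighbours on the minus strand of mouse chromosome 4 (GRCm38), at 126331704 to 126429556, 126435012 to 126468583 and 126489541 to 126533472. Ago2 lies on chromosome 15 (73095844 to 73184935, minus strand), Piwil1 on chromosome 5 (128702524 to 128755474, plus strand), Piwil2 on chromosome 14 (70372477 to 70429383, minus strand) and Piwil4 on chromosome 9 (14696230 to 14740733, minus strand). The promoters of Ago3 and Ago4, whose levels had r = 0.87, of Ago1 between them, and of Piwil1, whose r with any member was at most 0.59, are shown as the 100 bases before the start of the RefSeq transcript (GRCm38.p6), 5′ to 3′ on the strand of the gene, with CpG in capitals. They lie at chr4:126429543-126429642, chr4:126468584-126468683, chr4:126533459-126533558 and chr5:128736146-128736245 in turn.
Ago3: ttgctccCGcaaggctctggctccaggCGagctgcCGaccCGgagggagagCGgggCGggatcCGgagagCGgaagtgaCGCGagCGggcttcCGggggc
Ago1: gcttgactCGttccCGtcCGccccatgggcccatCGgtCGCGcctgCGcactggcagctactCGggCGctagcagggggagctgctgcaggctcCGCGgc
Ago4: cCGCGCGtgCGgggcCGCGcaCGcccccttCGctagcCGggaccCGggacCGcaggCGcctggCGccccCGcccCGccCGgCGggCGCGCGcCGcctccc
Piwil1: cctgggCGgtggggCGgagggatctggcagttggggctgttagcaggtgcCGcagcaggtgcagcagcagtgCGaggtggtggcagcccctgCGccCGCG
The Piwil1 stretch lies before a RefSeq start inside the gene span given above, not at the first base of that span. In 250 bases before the start, Ago3 had 27 CpG, Ago1 28, Ago4 46 and Piwil1 16, beside a median of 6 in 32851 promoters of the same length. Another RefSeq start of Ago1, not shown, had 26. The core letters AACNG of the MYB motif, searched on both strands, matched at 4 places before Piwil1 and at 0 places before these 3 Argonaute genes. Piwil4, not shown, had 1 match and 10 CpG at chr9:14740673-14740922, and 3 matches and 0 CpG at chr9:14718388-14718637. The letters AACNG occur in 74.2% of all promoters of this length. The share of G and C was 73.6% for Ago3, 74.4% for Ago1, 85.6% for Ago4 and 67.6% for Piwil1, beside a median of 52.4%. No assay of binding or methylation was analysed here, so these letters are a description only.

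Reads of near-identical sequence could be divided between genes. Of the 50-base windows of the longest coding transcript, Ago1 shared 125 of 7178 (1.74%) with Ago3 or Ago2, and Ago3 shared 121 of 15546 (0.778%) with Ago1. Ago2 shared 311 of 13751 (2.26%), mostly with the genes Gm6088, Gm5281 and Gm12904. Piwil2, Piwil4 and Ago4 shared 0 windows, and Piwil1 shared 6 of 3967. Piwil1, Piwil4, Ago2 and Ago4 also overlap annotated genes on the opposite strand, and whether the authors counted by strand is not given in the sources used here. On the same strand, Piwil2 overlaps the snoRNA gene Gm22725 and the snRNA gene Gm24890, and Ago4 overlaps the processed pseudogene Gm12934.

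The count and the FPKM of a gene are tied by its length, so the ratio of unscaled CPM to FPKM gives the length in kilobases that the deposited values imply. This ratio was near constant over the 9 testes for Ago2 (14.2 kb at the median, highest over lowest 1.004), Ago4 (6.71 kb, 1.005), Piwil1 (4.05 kb, 1.01), Piwil4 (3.41 kb, 1.02) and Piwil2 (4.41 kb, 1.04). Ago1 varied more, with 6.94, 6.19 and 7.11 kb in wild-type, 7.39, 6.91 and 6.87 kb in heterozygous and 7.27, 7.43 and 7.13 kb in homozygous testes. Ago3 varied the most of the 7, with 16.1, 14.0 and 13.8 kb in wild-type, 14.7, 15.97 and 16.03 kb in heterozygous and 12.3, 13.5 and 11.5 kb in homozygous testes. Its ratio of highest to lowest, 1.40, was above that of 92.9% of 11612 genes with enough counts, whose median was 1.04. The 3 homozygous testes lay below the other 6, which was also so for 104 (0.896%) of the 11612 genes. This was noticed after the values were seen and was not tested.

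The direction of the Ago3 difference turned with the unit. On counts its log2 change was -0.12 between homozygous and heterozygous testes, and on log2(FPKM + 0.1) it was 0.17 in limma (adjusted p = 0.938). Against wild-type testes it was -0.20 on counts and 0.03 on log2(FPKM + 0.1). The files hold no counts per transcript, so the transcripts behind the Ago3 values were not analysed here.

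**Figure D5:**
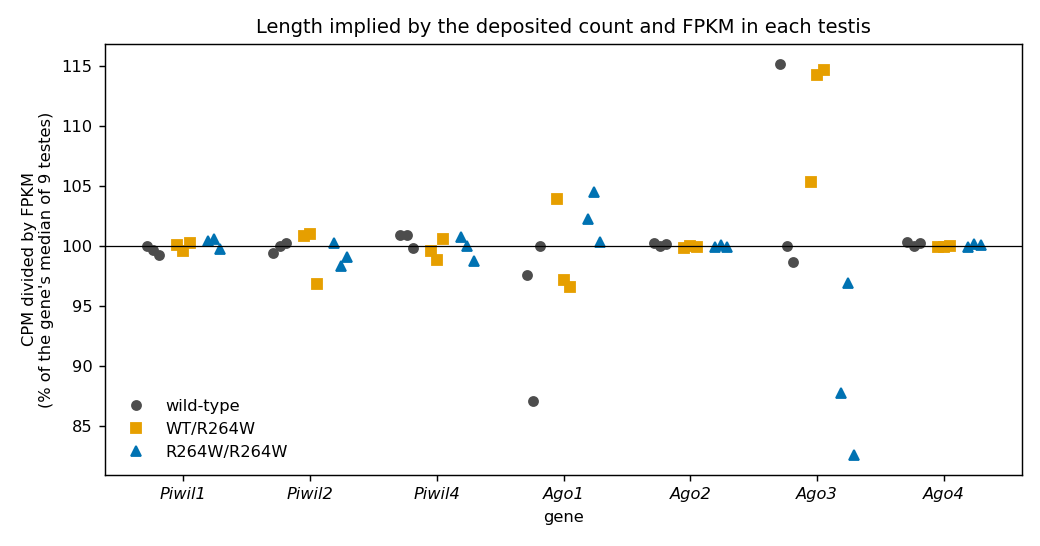
Length implied by the deposited count and FPKM (unscaled CPM divided by FPKM, as a percentage of the gene's median of 9 testes), with 1 point per testis and colours for the Piwil4 genotype. Most points lie near 100%, whereas Ago3 runs from 82.6% to 115% with the 3 homozygous testes at the bottom.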

How the data were processed

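Testes of 9 mice were profiled by RNA-seq. Total RNA was extracted with TRIzol, and libraries were made with an mRNA-seq kit (VAHTS) and sequenced as paired-end reads on a NovaSeq. The authors filtered reads with fastp (version 0.18.0) and assembled mapped reads with StringTie (version 1.3.1). The submitters' processing notes name the build mm39. The aligner, annotation release and counting tool are not given in the sources used here. The deposited table holds an estimated count, not scaled for library size, and an FPKM value per gene and testis, computed by the authors. Coordinates and sequences are from GENCODE vM21 and RefSeq on GRCm38, since the table has none. Promoter entries matched 5 of the 7 members.

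Samples were grouped by the genotype in their titles. Nothing in the labels says more about litters or days, and each library is taken as 1 mouse, so p-values measure the spread between these libraries, part of which may be technical. Estimated counts were rounded and fitted in R (version 4.3.3) with edgeR (version 4.0.16): filterByExpr, TMM, the two-sided quasi-likelihood test and Benjamini-Hochberg adjustment over all genes tested, on the 6 libraries of 2 genotypes, or on all 9 with genotype and the round spermatid score. Alternatives used DESeq2 (version 1.42.0) and limma (version 3.58.1, on genes averaging 0.5 FPKM or more). Genes named besides the members are, from each pathway list, the 4 largest slopes in each direction past an adjusted p under 0.05 and any gene with an unadjusted p under 0.05 in a genotype comparison, and the 3 genes most correlated with each member. Mov10l1 among the slopes, the spermatogonial markers and the genes sharing windows were named after their values were seen. Implied lengths were compared over genes with a mean of at least 100 counts, at least 10 counts and at least 0.2 FPKM in every testis. The members, lists and tests were chosen with earlier results of these data known. The edgeR fits were tested on simulated data. Between homozygous and wild-type testes, 38 of 100 genes given a log2 change of 1 passed an adjusted p under 0.05 in the right direction. At a log2 change of 2, 86 of 100 did. Slopes of 0.05, 0.1 and 0.3 were recovered for 1.49%, 32.8% and 97.0% of the genes given them. The changed genes had more counts on average than Piwil4. A gene that did not pass may therefore still differ.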

Additional observations from a re-analysis of the deposited data

How the results depend on the processing

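No PIWI or Argonaute gene passed an adjusted p under 0.05 in any of 311 alternative fits of the genotype comparisons, and the direction turned in 24 of them. In 138 alternative fits of the slope the direction turned in 10, and 27 passed, beside 25.1% of all genes in the main slope fit. Over all genes, the edgeR count of 0 became 2 with DESeq2 in homozygous against wild-type and 6 in homozygous against heterozygous testes. The number of genes with a slope past the threshold, 4030, ran from 1964 (without wild-type replicate 1) to 6050 (without heterozygous replicate 1) when a library was left out, and was 2292 without wild-type replicate 3, 2588 without heterozygous replicate 3 and 2301 without homozygous replicate 3. The 5 neighbour pairs that differed in level stayed 5 with each library left out. The causes of these changes were not tested.

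With limma on log2(FPKM + 0.1) and log2(FPKM + 1), Ago3 was at 0.0256 and 0.0161 between homozygous and wild-type testes and at 0.17 and 0.13 against heterozygous testes, and Ago1 was at -0.0022 and -0.0027 between heterozygous and wild-type testes. Ago4 between homozygous and heterozygous testes was at 0.0088 with DESeq2, 0.0082 with its size factors and 0.0175 with the score as a covariate. The slope of Piwil1 turned to 0.0015 with DESeq2, 0.0016 with its size factors, 0.0376 with Sertoli cell scaling, 0.00087 with at least 10 counts in every library and 0.0076 with the replicate block. Sertoli cell scaling also turned the slopes of Piwil4 (0.0169) and Ago4 (0.0127).

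Left-out libraries gave log2 changes of -0.16 to 0.0222 for Piwil2 between homozygous and wild-type testes. Against heterozygous testes they gave -0.13 to 0.0041 for Piwil2, -0.27 to 0.0926 for Ago3 and -0.0479 to 0.0624 for Ago4. Between heterozygous and wild-type testes they gave -0.0790 to 0.0805 for Piwil2, -0.0768 to 0.32 for Piwil4, -0.0471 to 0.0975 for Ago1, -0.0628 to 0.12 for Ago2 and -0.30 to 0.0648 for Ago3. The slopes ran from -0.0139 to 0.0037 for Piwil1 and from -0.0644 to 0.0152 for Piwil4.

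The slope of Piwil2 missed the threshold with DESeq2 size factors (adjusted p = 0.0550, edgeR), Sertoli cell scaling (0.838), the replicate block (0.0638) and without 5 of the 9 libraries in turn, namely wild-type replicates 1 and 3 and all 3 homozygous replicates (-0.05 to -0.04). Ago2 passed in 5 and Ago3 in 4 of 11 settings that kept all libraries, and Ago1 in the 2 with limma. Over all genes, 3164 to 5481 passed in these 11 settings.

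Deviations of equally numbered samples correlated at between -0.73 and 0.78. Whether the replicate numbers pair the samples cannot be told from these values, since the stage of the testes differed as well. The round spermatid score of replicate 1 was 5.64 in wild-type, 4.63 in heterozygous and 1.74 in homozygous testes. That of replicate 3 was 0.743, 0.241 and 5.45 in the same order. With the number as a replicate block, 0 genes passed in each genotype comparison, and 52, 131 and 181 passed at an unadjusted p under 0.05 (homozygous against wild-type, against heterozygous, and heterozygous against wild-type). The slope passed for 3164 genes. Few counts limit Piwil4.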
